A study of Mus musculus with 38 samples.

Results

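Gata4, Gata6, Sox7, Sox17, Foxa1, Foxa2, Hnf4a and Pdgfra, 8 regulators and marker genes of the endoderm, were followed by symbol through the gene tables of LAP2B, LMNB1 and IGG CUT&RUN, which list 78202 genes. All 8 were listed once and all 8 passed the filter on low values in each table. In CUT&RUN a nuclease that is held by an antibody cuts out the DNA lying next to the antibody's target. LAP2B, encoded by Tmpo, sits in the membrane that faces the nucleoplasm, LMNB1 is the lamin B1 protein of the lamina under it, and IGG was an immunoglobulin without a nuclear target that gives the background of the method. LAP2B was mapped in WT mouse embryonic stem cells, in cells without the lamin B receptor (LBRKO), in cells lacking all lamins (TKO) and in cells lacking the lamins and the receptor (QKO), with 3 libraries for each genotype in naive mESCs and 3 in EpiLCs. For LMNB1 and IGG only WT cells were used, with 3 libraries per stage, so the background in the mutants was not measured. Naive mESCs were kept in 2i + LIF medium without serum or feeder cells, and EpiLCs (epiblast-like cells) were derived from them in medium with FGF and Activin A, both for 48 hours. QKO was a single clone made from TKO cells, several LBRKO clones were made from WT cells, and TKO and WT were separate lines, neither with a wholly normal karyotype. Errors and p-values thus reflect how libraries vary, and say nothing of how clones or lines of a genotype vary. CUT&RUN reads DNA and not transcripts, so neither the knockouts nor the cell state could be checked from it. Over the knocked-out genes Lbr, Lmna, Lmnb1 and Lmnb2, LAP2B ranged from 1.82 to 52.0 times a library's median gene across genotypes and stages. In naive cells Lmna read 4.16 to 9.56 in WT and 28.6 to 52.0 in QKO. Lmnb2 read 1.82 to 3.63 in naive WT and 14.3 to 20.7 in naive QKO. Relative to the median gene, Lbr was also higher in naive QKO (8.19 to 9.58) than in WT (4.30 to 5.67). Lmnb1 overlapped, at 12.2 to 12.8 in naive QKO and 11.8 to 13.2 in WT. On this scale every naive QKO library lay above WT in 33.5% of all genes. With values as deposited, scaled to yeast spike-in DNA, 2 of these 4 genes were called higher in naive QKO and 1 lower. Lbr did not pass there (log2 change -0.37, limma adjusted p = 0.176). The cause of these differences was not tested.

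Chromatin that touches the nuclear lamina is mostly late-replicating and silent, and lies in long domains that are poor in genes. Many genes that belong to another lineage than the one a cell has taken lie in such domains. Endoderm forms in the mouse embryo on a pair of occasions, first as primitive endoderm beside the naive epiblast and later as definitive endoderm at gastrulation. The GATA factors Gata4 and Gata6 and the SOX factors Sox7 and Sox17 drive primitive endoderm, and Pdgfra is the receptor tyrosine kinase by which these cells are usually recognised. Foxa1 and Foxa2 are pioneer factors that open chromatin in gut and liver endoderm, and Hnf4a is a nuclear receptor of visceral endoderm and liver.

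On GRCm39, Gata4 (ENSMUSG00000021944) lies at chr14:63436362-63509141 on the minus strand and Gata6 (ENSMUSG00000005836) at chr18:11051565-11086995 on the plus strand. Sox7 (ENSMUSG00000063060) lies at chr14:64181006-64188352 on the plus strand, 671.865 kb from Gata4, and Sox17 (ENSMUSG00000025902) at chr1:4561151-4567784 on the minus strand. Foxa1 (ENSMUSG00000035451) is at chr12:57587414-57593702 and Foxa2 (ENSMUSG00000037025) at chr2:147884797-147889005, both on the minus strand. Hnf4a (ENSMUSG00000017950) is at chr2:163348728-163414830 and Pdgfra (ENSMUSG00000029231) at chr5:75311994-75358876, both on the plus strand. Each value covers the whole gene, exons and introns alike, in bins of 1 kb. Sox17, Foxa1, Foxa2 and Sox7 are short genes that touch 6 to 8 bins, and Gata6, Pdgfra, Hnf4a and Gata4 touch 36 to 74. Other annotated genes share bins with 5 of the 8, among them Hnf4aos with 36 of the 67 bins of Hnf4a and Gata6os with 3 of the 36 bins of Gata6, and signal in a shared bin cannot be told apart between them.

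Foxa1, Foxa2 and Sox17 ranked higher in GC content than their surroundings did. Foxa2 had 58.6% GC, above 97.6% of 70312 genes, and Foxa1 had 52.4%, above 87.1%, whereas the 100 kb on either side of Foxa1 stood at percentile 26.4 of GC and those of Foxa2 at percentile 45.8. Sox17 had the same contrast, with a gene at percentile 78.3 and flanks at percentile 28.3. The flanks of Gata4, Sox7 and Hnf4a were at percentiles 77.2 to 79.9. Within 500 kb there were 3 to 5 protein-coding genes around Foxa2, Foxa1, Gata6, Pdgfra and Sox17, 9 around Sox7, 14 around Gata4 and 17 around Hnf4a, against a median of 15 around 21683 coding genes.

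RefSeq promoters (GRCm38.p6, 250 bases before to 50 after the start) were used for Foxa1, Foxa2, Hnf4a and Pdgfra. None was used for Gata4, Gata6, Sox7 or Sox17. Those of Foxa1 and of the outermost of 3 starts of Foxa2 are shown because these 2 genes parted from their surroundings in the mutants, and that of Pdgfra because it did not. They were thus picked by the outcome, and a relation of promoter sequence to LAP2B was not tested. Capitals mark the dinucleotide CG, which reads the same on both strands.
Foxa1: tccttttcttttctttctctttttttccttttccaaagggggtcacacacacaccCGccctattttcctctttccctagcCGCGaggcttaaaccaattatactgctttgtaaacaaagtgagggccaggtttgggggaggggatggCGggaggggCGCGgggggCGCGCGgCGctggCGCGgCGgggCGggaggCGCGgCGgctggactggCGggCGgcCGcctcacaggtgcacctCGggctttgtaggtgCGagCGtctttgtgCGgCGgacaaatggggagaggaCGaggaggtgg
Foxa2: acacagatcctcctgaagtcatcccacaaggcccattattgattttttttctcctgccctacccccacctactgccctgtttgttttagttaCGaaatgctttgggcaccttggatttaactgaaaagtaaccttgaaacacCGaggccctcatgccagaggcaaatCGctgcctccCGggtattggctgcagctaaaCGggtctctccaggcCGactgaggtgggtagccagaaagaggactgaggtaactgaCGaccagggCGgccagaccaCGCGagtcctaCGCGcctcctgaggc
Pdgfra: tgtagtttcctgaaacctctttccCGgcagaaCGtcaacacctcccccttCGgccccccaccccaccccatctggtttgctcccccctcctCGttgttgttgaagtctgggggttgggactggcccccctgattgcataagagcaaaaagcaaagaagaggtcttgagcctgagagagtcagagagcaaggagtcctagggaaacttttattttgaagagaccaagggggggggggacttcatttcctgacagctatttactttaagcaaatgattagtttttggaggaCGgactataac
The Foxa1 promoter, at chr12:57546062-57546361 on the minus strand, held 26 CG, and 16.9% of 32851 promoters held as many or more. The Foxa2 promoter, at chr2:148046920-148047219 on the minus strand, held 12 (39.6% held as many), and its other starts held 23 and 13. The Pdgfra promoter, at chr5:75152001-75152300 on the plus strand, held 5 (62.0% held as many), and those of Hnf4a held 4 each. The median promoter held 7.

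A LAP2B library held 12608484 to 41198406 reads summed over genes, an LMNB1 library 29522895 to 37189077 and an IGG library 12028659 to 45689196. Behind each value stood 24 to 225 reads for Sox7 and 42 to 465 for the other short genes, against 156 to 2082 for the long ones, so the short genes carry the larger errors. Values are used on a pair of scales. On the spike-in scale they are as deposited. On the relative scale each library is divided by its own median gene, so that a value of 2.0 means a signal 2.0 times that of the median gene and a change is one against other genes, not of total signal. Changes are log2 differences tested with limma over 70381 genes, called at a Benjamini-Hochberg adjusted p under 0.05, and given with their SE.

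In naive WT cells the 8 genes were spread widely over the LAP2B range. As a level per 1 kb bin, Sox17 and Foxa2 ranked among the genes with most LAP2B, at percentiles 97.4 ± 2.2 and 93.6 ± 2.8 (SD, n = 3), and Foxa1 was near the middle at 57.3 ± 17. Per kb of gene length instead of per bin, Sox17 and Foxa2 ranked lower, at 81.1 and 82.1. Sox7, Hnf4a, Gata6, Pdgfra and Gata4 followed at 23.1 ± 18, 20.7 ± 4.3, 20.4 ± 5.9, 15.6 ± 1.7 and 15.3 ± 5.0, and the spreads of these 5 overlapped, as did those of Sox17 and Foxa2. The LMNB1 libraries gave a similar order, with Sox17 at 97.5 ± 1.6, Foxa2 at 88.2 ± 4.7 and Foxa1 at 71.7 ± 8.9, then Gata6 at 34.4 ± 5.3, Pdgfra at 18.0 ± 3.9, Hnf4a at 15.5 ± 2.2, Sox7 at 12.7 ± 7.8 and Gata4 at 11.7 ± 1.6.

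The IGG background was not flat over these genes. Sox17 stood at percentile 95.5 ± 1.4 in naive IGG, hardly below its LAP2B percentile, and Foxa2 stood at 73.2 ± 13. Gata4 was at 48.8 ± 21 in IGG, above its place in LAP2B and LMNB1, and the other 5 genes were at 20.6 to 44.9. How much of the high LAP2B rank of Sox17 is background was not tested. In EpiLC WT cells the LAP2B percentile of Foxa2 was 60.2 and that of Sox17 87.6, and those of Gata4 and Pdgfra were 35.3 and 29.5.

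**Figure D1:**
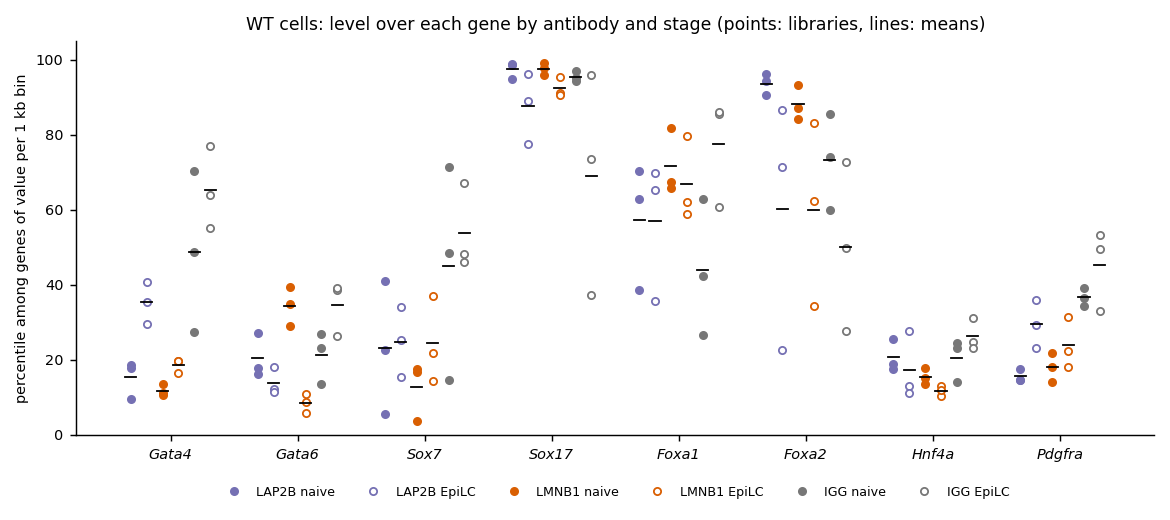
Percentile of each gene among all genes by value per 1 kb bin (y axis) in WT cells, by antibody and stage; points are libraries and lines are means of 3. Sox17 and Foxa2 lie high in naive LAP2B and LMNB1, Gata4, Hnf4a and Pdgfra low, and Sox17 lies as high in naive IGG, at 95.5.

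Most of the 8 genes were higher in naive cells without the lamin B receptor. Relative to the median gene, 6 rose and Sox17 fell in LBRKO, while 28.9% of all genes were called higher and 27.4% lower, and the median change was 0.49 over the 8 genes and 0.05 over all genes. In TKO only Foxa1 was called, as higher, against 21.8% of genes called higher and 27.5% lower. In QKO Gata4, Pdgfra and Gata6 rose relative to the median gene and Sox17 and Foxa2 fell, against 33.3% and 42.1% of genes, with a median of 0.23 over the 8 and -0.21 over all genes; on the spike-in scale all 8 were lower in QKO, as set out further on. The share of the 8 called higher was above that of all genes in LBRKO and close to it in QKO, and a count over 8 genes chosen with earlier results known is read as a description.

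Gata4 had LAP2B at 9.57, 6.64 and 9.62 times the median gene in the naive WT libraries, 16.0, 15.7 and 14.9 in those of LBRKO, 8.37, 12.1 and 9.63 in those of TKO and 14.2, 12.8 and 14.1 in those of QKO. The LBRKO and QKO libraries all lay above WT, as in 28.9% and 33.5% of all genes, and those of TKO overlapped WT. The share of genes whose libraries lay wholly below WT was 28.3% for LBRKO, 29.2% for TKO and 41.7% for QKO, and 21.8% lay above for TKO. Relative to the median gene, the change of Gata4 was 0.86 (SE 0.117, adjusted p = 1.35e-08) in LBRKO and 0.68 (SE 0.117, adjusted p = 9.88e-07) in QKO, where the spike-in scale gave a fall. Gata6 read 5.36, 4.02 and 4.50 in the WT libraries, 7.14, 6.07 and 6.35 in those of LBRKO, 5.24, 5.95 and 4.54 in those of TKO and 5.51, 6.39 and 5.13 in those of QKO. It rose by 0.49 (SE 0.137, adjusted p = 0.00211) in LBRKO, without overlap with WT. In QKO its groups overlapped, and the change of 0.29 (adjusted p = 0.0498) was lost without naive WT replicate 2 (0.20, adjusted p = 0.225) or replicate 3 (adjusted p = 0.0964) and without QKO replicate 1 (adjusted p = 0.0659) or replicate 2 (adjusted p = 0.209).

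Sox7 and Sox17 are of the same SOX subfamily, and the difference between them was not tested. Sox7 had LAP2B at 1.11, 0.545 and 1.46 times the median gene in the naive WT libraries, 1.80, 1.98 and 1.67 in those of LBRKO, 0.842, 1.15 and 0.985 in those of TKO and 1.00, 1.22 and 1.26 in those of QKO. LBRKO lay above WT with a change of 0.84 (SE 0.240, adjusted p = 0.00258), which rested on naive WT replicate 2, since it was 0.48 (adjusted p = 0.0932) without that library. In QKO its change was 0.23 (adjusted p = 0.379). Sox17 read 4.44, 5.59 and 3.23 in the WT libraries, 3.31, 2.69 and 2.89 in those of LBRKO, 4.17, 5.23 and 5.81 in those of TKO and 2.44, 2.10 and 1.93 in those of QKO. All QKO libraries of Sox17 lay below WT and TKO, and the change was -0.98 (SE 0.190, adjusted p = 1.01e-05). The fall in LBRKO, where the libraries overlapped WT, was -0.53 (SE 0.190, adjusted p = 0.0151) and was lost without naive WT replicate 2 (-0.35, adjusted p = 0.152) or LBRKO replicate 2 (-0.47, adjusted p = 0.0599). On the spike-in scale it did not pass (-0.36, adjusted p = 0.297).

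The pioneer factor genes were not tested against each other, and on the spike-in scale both fell in QKO. Foxa1 had LAP2B at 1.72, 2.11 and 1.23 times the median gene in the naive WT libraries, 2.62, 2.41 and 2.25 in those of LBRKO, 2.95, 2.83 and 3.00 in those of TKO and 1.82, 1.55 and 1.85 in those of QKO. TKO and LBRKO lay above WT, and QKO lay within it. Foxa1 rose by 0.79 (SE 0.196, adjusted p = 0.000762) in TKO and by 0.53 (adjusted p = 0.0195) in LBRKO, the latter lost without naive WT replicate 3 (0.33, adjusted p = 0.178) or LBRKO replicate 1 (0.47, adjusted p = 0.0663); in QKO the change was 0.07 (95% interval from its SE, -0.31 to 0.45). On the spike-in scale the change of Foxa1 in TKO was 0.19 (adjusted p = 0.622). Foxa2 read 3.00, 2.82 and 2.65 in the WT libraries, 3.40, 2.36 and 3.46 in those of LBRKO, 2.57, 2.25 and 2.09 in those of TKO and 1.17, 1.32 and 1.63 in those of QKO. QKO lay far below WT, with a change of -0.998 (SE 0.211, adjusted p = 3.79e-05). TKO lay just below WT too, but its change of -0.29 did not pass (adjusted p = 0.261), and LBRKO spanned WT at 0.10 (adjusted p = 0.703).

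Hnf4a, the nuclear receptor, had LAP2B at 8.42, 9.00 and 8.98 times the median gene in the naive WT libraries, 10.5, 12.0 and 9.89 in those of LBRKO, 7.84, 9.83 and 6.70 in those of TKO and 9.97, 10.9 and 9.88 in those of QKO. It rose by 0.29 (SE 0.118, adjusted p = 0.0341) in LBRKO, a call lost without naive WT replicate 1 (0.26, adjusted p = 0.0999) or LBRKO replicate 2 (0.21, adjusted p = 0.169). In QKO the libraries lay above WT, but 0.22 did not pass (adjusted p = 0.0872). Pdgfra, the receptor kinase, read 6.04, 4.89 and 5.77 in the WT libraries, 6.46, 8.97 and 8.11 in those of LBRKO, 6.54, 7.78 and 5.94 in those of TKO and 7.73, 7.70 and 6.71 in those of QKO. Relative to the median gene Pdgfra rose by 0.48 (SE 0.134, adjusted p = 0.0021) in LBRKO and by 0.40 (SE 0.134, adjusted p = 0.00625) in QKO, in both without overlap with WT, and on the spike-in scale it was lower in QKO.

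**Figure D2:**
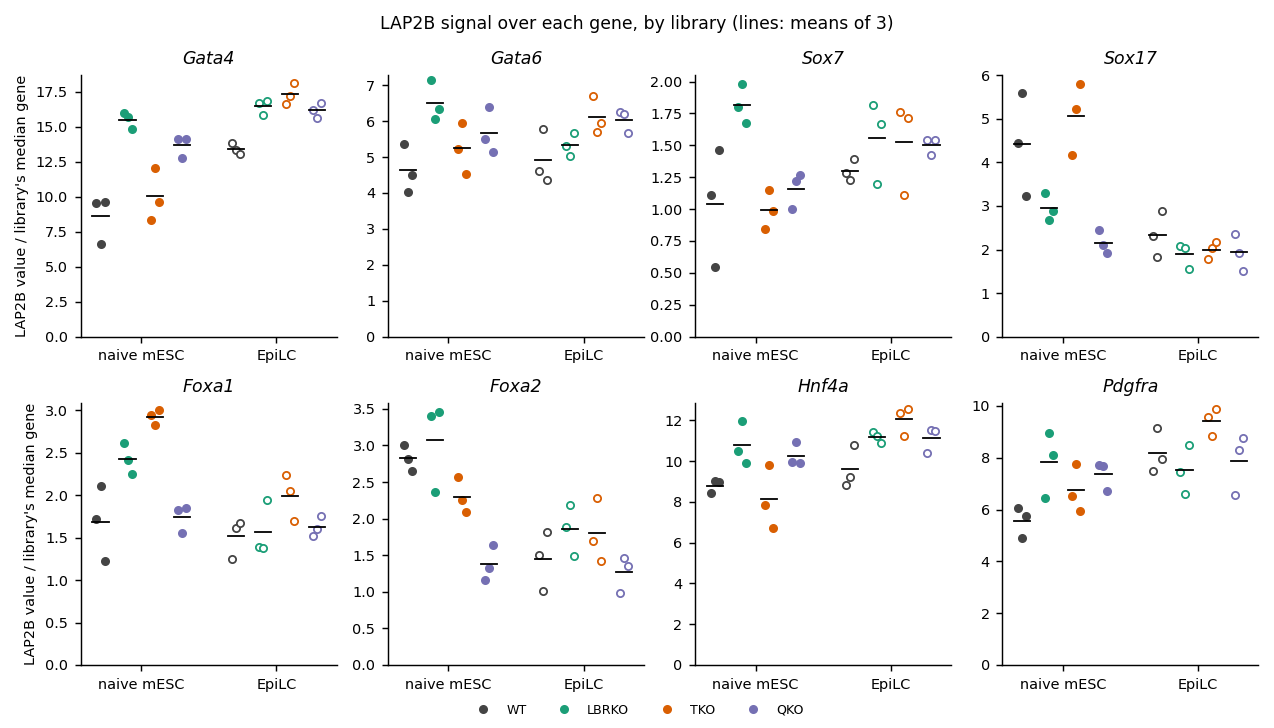
LAP2B value over each gene divided by the library's median gene (y axis, from 0) for the 24 LAP2B libraries; filled points are naive mESCs, open points EpiLCs, and lines are means of 3. Naive Sox17 and Foxa2 are lowest in QKO and naive Gata4 is highest in LBRKO, while the EpiLC genotypes lie closer together; on the spike-in scale all 8 genes were lower in naive QKO.

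Dividing by the mean gene instead of the median gene moved the median change of all genes by 0.23 in naive TKO and 0.23 in naive QKO, and by less than 0.1 in LBRKO. On that scaling the share of genes called higher and lower was 33.4% and 15.8% in TKO and 38.4% and 35.4% in QKO, where the 8 genes gave 5 higher and none lower in TKO, and 4 higher and 2 lower in QKO. Sox17 (-0.64) and Foxa2 (-0.63) stayed lower in QKO and Gata4 (0.91) and Pdgfra (0.63) higher. The mean gene was several times the median gene, so a pseudocount of 0.1 weighed more on that scaling. With the pseudocount kept at 0.1 of the table median, an alternative added after seeing the data, the counts over the 8 genes in TKO and QKO were the same, with Sox17 at -0.71 and Foxa2 at -0.74 in QKO. In LBRKO Sox17 was no longer called on this alternative (-0.42, adjusted p = 0.0568). The WT and TKO lines were not of wholly normal karyotype. The trisomies and the loss of Y that the paper names in them involve no chromosome that holds any of the 8 genes. It gives no karyotype for LBRKO or QKO. The median gene of a member's chromosome changed by -0.50 (chromosome 1) to 0.08 (chromosome 5) in QKO and by -0.13 (chromosome 18) to 0.23 (chromosome 5) in LBRKO. On chromosome 14, which holds Gata4 and Sox7, it changed by -0.45 in QKO, away from the direction of Gata4. The median gene moved in the direction of Pdgfra on chromosome 5 in LBRKO and in that of Sox17 on chromosome 1 in QKO.

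The spike-in scale multiplies RPKM, which is already set to the library's depth, by a factor from the yeast reads, and gave another picture for TKO and QKO. In naive LBRKO 5 genes rose, from Pdgfra at 0.66 (adjusted p = 0.0196) to Gata4 at 1.05 (adjusted p = 9.03e-05), against 28.3% of all genes called higher and 17.5% lower. In naive TKO Foxa2 fell by 0.89 (adjusted p = 0.00842) and Hnf4a fell by 0.75 (adjusted p = 0.00558), against 2.43% higher and 47.2% lower. In naive QKO all 8 genes fell, against 10.1% higher and 65.1% lower. The smallest fall was that of Gata4 at -0.55 (adjusted p = 0.0274), and Sox17 at -2.15 (SE 0.283, adjusted p = 1.49e-13) and Foxa2 at -2.14 (SE 0.299, adjusted p = 4.17e-12) fell most, while the median over all genes was -1.23. As deposited, Sox17 had 9.40, 16.0 and 7.66 in WT and 2.67, 1.93 and 2.07 in QKO, and Foxa2 had 6.35, 8.09 and 6.29 in WT and 1.27, 1.22 and 1.76 in QKO. Neither gene's QKO libraries came near WT.

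Single libraries decided several of these spike-in calls. In LBRKO the number of genes called was 2 to 6 when a naive library was left out, and Gata4 held throughout. Foxa1 was lost without WT replicate 1 or 3 or LBRKO replicate 2 or 3 (adjusted p = 0.088 to 0.232), Pdgfra without WT replicate 1 or LBRKO replicate 2 or 3, Gata6 without WT or LBRKO replicate 3, and Sox7 without WT replicate 2. Applying the factor to reads instead of RPKM gave 7 calls in naive TKO in place of 2. In TKO the count was 6 when TKO replicate 2 was left out, 1 when TKO replicate 1 was, and none when WT replicate 2 or TKO replicate 3 was. In QKO Gata4 was lost without WT replicate 3 (-0.48, adjusted p = 0.0982) or QKO replicate 2 (-0.43, adjusted p = 0.139), and Sox7 without WT replicate 3 (-0.61, adjusted p = 0.112).

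**Figure D3:**
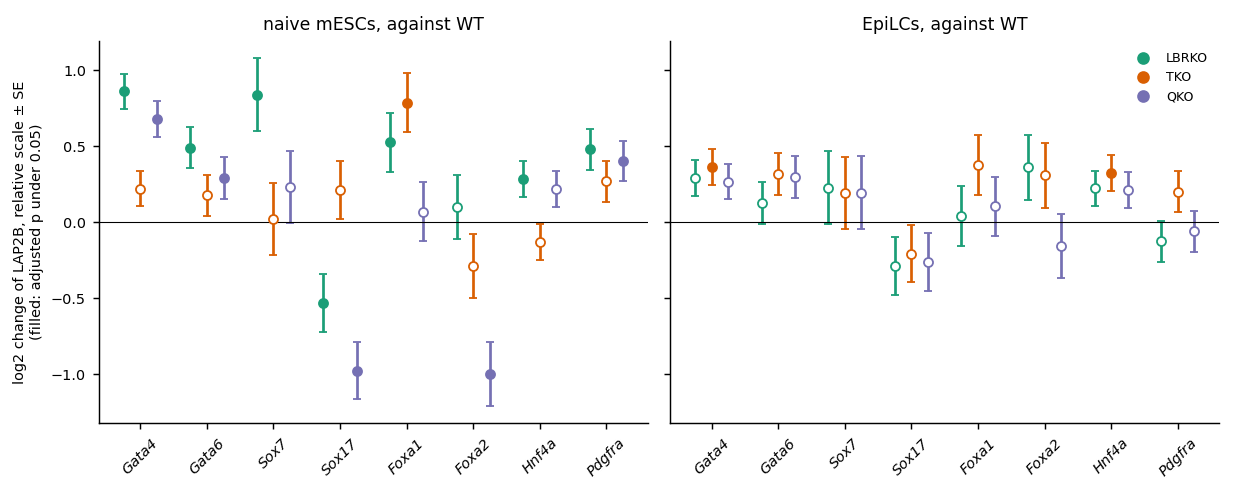
Log2 change of LAP2B against WT on the relative scale (y axis, ± SE from limma) for each gene in LBRKO, TKO and QKO, at left in naive mESCs and at right in EpiLCs; filled points have an adjusted p under 0.05. Of 24 naive points 13 are filled, and of 24 EpiLC points 2 are; on the spike-in scale all 8 naive QKO changes are below 0.

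The surroundings of the genes had directions of their own, shared with the gene at Gata4, Sox17 and Foxa2 but not at Foxa1. Within 500 kb of the start, and leaving out genes that overlap the member, naive QKO had 24 of 43 genes higher and none lower around Gata4 and 16 of 33 higher and none lower around Hnf4a, relative to the median gene, where 33.3% of all genes were higher and 42.1% lower. Around Sox7, whose window shares genes with that of Gata4, 9 of 30 were higher and none lower. Around Sox17 21 of 29 genes were lower and none higher, with a median change of -0.92, and around Foxa2 all 21 were lower, with a median of -1.84. Around Gata6 (1 of 23 higher, 5 lower) and Pdgfra (5 of 28 higher, 3 lower) the directions were mixed. When libraries were divided by their mean, 9 were higher and none lower around Pdgfra, 4 were higher and 1 lower around Gata6, and the median around Gata6 turned from -0.17 to 0.04. The medians around Sox17, Foxa2 and Foxa1 then were -0.43, -1.18 and -0.58, and -0.70, -1.63 and -1.0 with the pseudocount scaled too, so much of that move came with the pseudocount and not with the division. On the spike-in scale genes were called lower in QKO around every one of the 8, from 20 of 23 around Gata6 and 21 of 43 around Gata4 to all 21 around Foxa2, against 65.1% of all genes, and the few called higher (3 of 33) lay around Hnf4a.

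No relative change of Foxa1 was called in QKO, while 14 of the 17 genes around it were lower and none was higher, with a median change of -1.23. Its flanking genes Mipol1 and Ttc6 fell by 1.45 and 1.61, whereas Foxa1 itself had 0.07 (adjusted p = 0.755). In TKO 10 of the 17 were lower (median -0.78) and 1 was higher, while Foxa1 rose, and dividing by the mean left 7 lower with a median of -0.27 (6 and -0.50 with the pseudocount scaled). Foxa2 fell less than its flanking genes Pax1 (-1.52) and Thbd (-1.68) in QKO, and in TKO 19 of its 21 neighbours were lower (median -1.12) where Foxa2 itself had -0.29, and 17 were lower when divided by the mean (median -0.59, or -0.85 with the pseudocount scaled). In LBRKO, 6 of 17 genes around Foxa1, 10 of 21 around Foxa2 and 15 of 29 around Sox17 were lower and none was higher, whereas 24 of 43 around Gata4 and 20 of 30 around Sox7 were higher and none was lower. Around Hnf4a 13 of 33, around Pdgfra 14 of 28 and around Gata6 5 of 23 were higher in LBRKO and none was lower. The median changes of these surroundings were 0.28, 0.48 and 0.37, so the surroundings of these 3 genes moved in the direction of the gene. Of all genes 28.9% were higher and 27.4% lower. On the spike-in scale (28.3% of all genes higher, 17.5% lower) 2 were lower around Foxa1, 3 around Foxa2 and 9 around Sox17. There 24 were higher around Gata4, 21 around Sox7, 14 around Pdgfra, 9 around Hnf4a and 7 around Gata6. Of the flanking genes at the other members, Neil2 (0.85) and Blk (0.32) beside Gata4, R3hdml (0.52) beside Hnf4a, and Gsx2 (0.97) and Kit (0.63) beside Pdgfra rose in QKO relative to the median gene, and Rbbp8 (-0.59) beside Gata6 and Rp1 (-1.81) and Mrpl15 (-0.38) beside Sox17 fell. Serinc3 beside Hnf4a, Mib1 beside Gata6, and Pinx1 and 4930578I06Rik beside Sox7 did not pass.

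**Figure D4:**
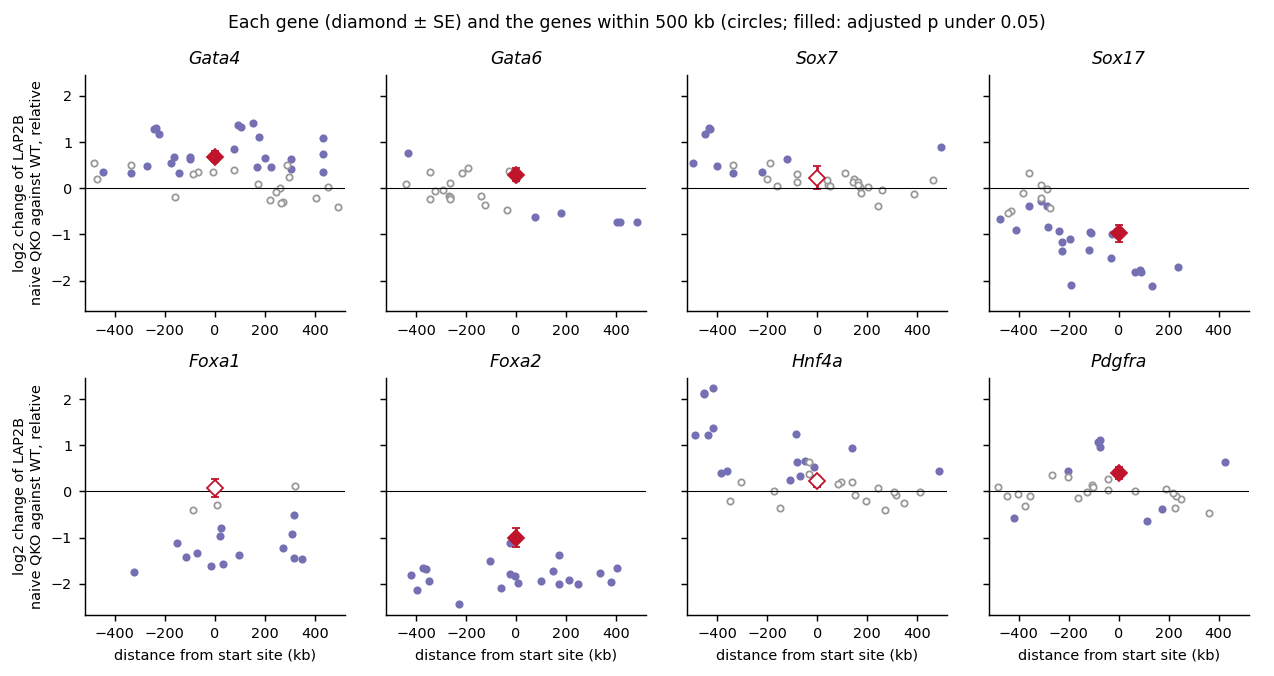
Log2 change of LAP2B in naive QKO against WT on the relative scale (y axis) for each gene (diamond, ± SE) and the genes within 500 kb (circles) by distance from the start site in kb (x axis, in the direction in which the gene in the diamond is transcribed); filled symbols have an adjusted p under 0.05. All 21 genes around Foxa2 lie below 0, and Foxa1, at 0.07, lies above all but 1 of the genes around it; on the spike-in scale the 8 genes were all lower.

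The distance of a gene from its surroundings was taken within each library, on the relative scale. A factor shared by a whole library cancels in this distance except through the pseudocount, which weighs most on low genes. As log2 of the gene minus the median of the genes within 500 kb, Foxa1 stood at 0.27 to 0.74 in naive WT, 1.05 to 1.40 in LBRKO, 1.38 to 1.58 in TKO and 1.11 to 1.53 in QKO. Foxa2 stood at 0.68 to 0.88 in WT, 1.12 to 1.68 in LBRKO, 1.58 to 1.65 in TKO and 1.51 to 2.19 in QKO. For both genes every mutant library lay above every WT library, as in 5.18% of 66126 genes with at least 10 others around them, while 7.37% had every mutant library below. For Sox17 the WT range of 1.32 to 1.77 overlapped all mutants, and Gata6, Sox7, Hnf4a and Pdgfra overlapped WT in every mutant, or touched it at its edge as Gata6 did in QKO (1.88 to 2.55 in WT, 2.55 to 3.00 in QKO). Gata4 in QKO, at 3.22 to 3.45, lay just above its WT range of 2.71 to 3.19. Of the 66126 genes, 18.6% had every QKO library above WT and 23.8% had every QKO library below. The distances were chosen after the changes had been seen and carry no test. Values add over the bins of a gene, so only the change between genotypes, and not the distance itself, compares with other genes.

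**Figure D5:**
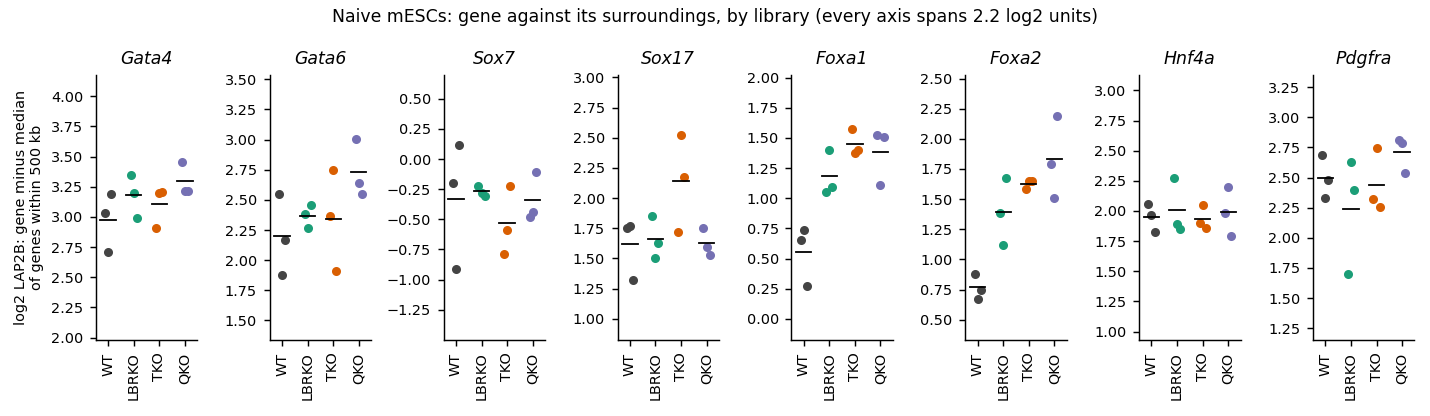
Log2 LAP2B value of each gene minus the median of the genes within 500 kb (y axis, each panel spanning the same number of log2 units) in the 12 naive libraries; points are libraries and lines means of 3. Foxa1 (WT 0.27 to 0.74) and Foxa2 (WT 0.68 to 0.88) lie above WT in every mutant library, and the other genes mostly overlap WT.

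The relative level of most of the 8 genes lay nearer to the naive WT background in QKO than in WT. The distance of the relative LAP2B level from the naive IGG level of the same gene was smaller in QKO than in WT for 7 of the 8 genes, all but Foxa1, against 39.6% of 68814 genes. Against IGG, Gata4 stood at -0.81 log2 units in WT and -0.13 in QKO, Foxa2 at 0.83 and -0.17, Sox17 at 0.68 and -0.30, and Pdgfra at -0.67 and -0.27. In LBRKO and in TKO 5 of 8 were nearer to IGG, against 55.4% and 65.9% of genes. Foxa1 stood 0.25 above IGG in WT, 0.32 in QKO and 1.04 in TKO. Both antibodies' levels are relative to their own median gene, and IGG was taken in WT cells, so the comparison is a description.

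In EpiLCs few of these differences between genotypes were found on the relative scale. The paper reports that LAP2B signal in WT EpiLCs lay both inside and outside the domains seen with lamin B1. It therefore did not use LAP2B to place domains in mutant EpiLCs. Changes of LAP2B in EpiLCs or between stages are given here as such, and not as changes of contact with the lamina. Relative to the median gene, none of the 8 was called in LBRKO (1 at an unadjusted p under 0.05, and none with edgeR), against 13.3% of genes called higher and 10.0% lower, and the changes ran from -0.28 to 0.36. None was called in QKO (2 at an unadjusted p under 0.05, and none with edgeR), against 18.3% higher and 17.7% lower, with changes from -0.26 to 0.30, but fitting EpiLCs alone gave 2 calls and dividing by the mean gave 3 higher, against 24.5% and 15.2% of genes. In TKO, against 8.68% higher and 9.92% lower, Gata4 and Hnf4a rose. Gata4 read 13.9, 13.4 and 13.1 in EpiLC WT and 16.6, 17.2 and 18.2 in TKO, without overlap (as in 19.2% of genes with TKO above), a change of 0.36 (SE 0.117, adjusted p = 0.0238). Hnf4a read 8.83, 9.21 and 10.8 in WT and 12.4, 11.2 and 12.6 in TKO, a change of 0.33 (SE 0.118, adjusted p = 0.0436). Each of the 2 calls was lost in 5 of the 6 fits that left out a library, Gata4 in all but that without TKO replicate 1 (adjusted p = 0.0518 to 0.0855) and Hnf4a in all but that without WT replicate 3 (adjusted p = 0.0542 to 0.196).

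In EpiLC QKO on the spike-in scale, 7 of the 8 genes were lower, against 0.119% of genes higher and 55.3% lower. Sox17 fell by 1.11 (adjusted p = 0.000385), Foxa2 by 0.98 (adjusted p = 0.00316) and Pdgfra by 0.93 (adjusted p = 0.000623), and Sox7 had -0.63 (adjusted p = 0.0787). Without EpiLC WT replicate 3 only Sox17 and Pdgfra were still called, and without QKO replicate 2 or 3 there were 4 calls. With the factor applied to reads there was 1 call in QKO and 5 in LBRKO. None was called in LBRKO (5.55% of genes higher, 3.41% lower) or in TKO (0.101% and 9.28%), nor at an unadjusted p under 0.05 or with edgeR. Leaving out EpiLC WT replicate 2 gave 1 call in TKO.

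From naive to EpiLC in WT, Gata4 and Pdgfra gained LAP2B and Sox17 and Foxa2 lost it, relative to the median gene, against 15.1% of genes higher and 17.0% lower (22.6% and 8.30% when libraries were divided by their mean, which moved the median of all genes by 0.15). Gata4 rose from 6.64 to 9.62 times the median gene in naive WT to 13.1 to 13.9 in EpiLC WT, a change of 0.66 (adjusted p = 2.27e-05). Pdgfra rose from 4.89 to 6.04 to 7.50 to 9.13, a change of 0.55 (adjusted p = 0.00126). Sox17 fell from 3.23 to 5.59 to 1.82 to 2.89, a change of -0.88 (adjusted p = 0.000335), and Foxa2 from 2.65 to 3.00 to 1.01 to 1.82, a change of -0.96 (adjusted p = 0.000425). In all 4 genes the stages did not overlap, as in 16.7% of all genes with EpiLC above and 22.6% with EpiLC below. Since LAP2B in EpiLCs also lay outside lamin B1 domains, per the paper, these are not read as changes of lamina contact. The spike-in scale had 10.4% of genes higher and 1.74% lower. There Gata4 (0.83, adjusted p = 0.00926) and Pdgfra (0.72, adjusted p = 0.034) rose, while Sox17 had -0.71 (adjusted p = 0.0769) and Foxa2 -0.79 (adjusted p = 0.0596). These 2 spike-in calls were fragile, since Pdgfra was lost in 5 of 6 fits that left out a library (adjusted p = 0.0582 to 0.179), all but that without EpiLC WT replicate 2, and Gata4 without EpiLC WT replicate 1 (adjusted p = 0.0594) or 3 (adjusted p = 0.0927).

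In LMNB1, measured in other libraries, Gata4 rose and Sox17, Foxa2 and Gata6 fell from naive to EpiLC on the relative scale. Relative to the median gene 6.28% of genes were higher and 7.13% lower in EpiLC (10.7% and 3.70% when divided by the mean, a shift of 0.12). Gata4 read 6.5, 7.33 and 7.31 in naive LMNB1 and 11.3, 10.3 and 9.99 in EpiLC, a rise of 0.57 (SE 0.136, adjusted p = 0.00843). Sox17 read 5.21, 5.28 and 3.91 and then 2.51, 3.39 and 2.51, a change of -0.76 (SE 0.175, adjusted p = 0.007), and Foxa2 read 2.72, 2.73 and 2.45 and then 1.08, 2.07 and 1.40, at -0.80 (SE 0.215, adjusted p = 0.0161). The stages did not overlap in these 3 genes, as in 15% of all genes with EpiLC above and 17.2% with EpiLC below. Gata6 fell as well, at -0.52 (adjusted p = 0.0279), though not when libraries were divided by their mean (-0.32, adjusted p = 0.148), a scaling on which Foxa2 did not pass either (-0.52). Pdgfra had 0.45 (adjusted p = 0.0534) and Sox7 0.68 (adjusted p = 0.0929). Without the intensity trend no gene was called, and without the filter on low values 1 was. All 4 calls were lost without EpiLC replicate 1 (adjusted p = 0.0638 to 0.134), all but Gata4 without EpiLC replicate 3 (adjusted p = 0.0509 to 0.154), and Gata6 without naive replicate 2 (adjusted p = 0.0675).

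LMNB1 on the spike-in scale rose over Gata4 (0.86, adjusted p = 0.0138) and Pdgfra (0.74, adjusted p = 0.0481), against 7.96% of genes higher and 0.251% lower. None of the 8 genes was called lower there, so the relative falls of Sox17, Foxa2 and Gata6 did not pass on this scale. Both were lost without naive replicate 1 or EpiLC replicate 1 or 3, and Pdgfra also without naive replicate 2 (adjusted p = 0.104), whereas 4 genes passed without EpiLC replicate 2. None of the 8 was called with a replicate block, nor without the intensity trend, nor without the filter on low values. No change of IGG between the stages was called over the 8 genes by limma or edgeR, but these libraries do not show a stable background. As deposited, IGG was higher in EpiLCs by a median of 1.11 over the 8 genes and 0.92 over all genes, with Gata4 at 1.26 (SE 0.536, adjusted p = 0.141) and Pdgfra at 1.09 (SE 0.534, adjusted p = 0.142), values above the spike-in rises of LAP2B and LMNB1 over these genes. The part of the background in those rises was not tested. On the relative scale 1 of 8 had an unadjusted p under 0.05, against 0.071% of genes called higher and 0.391% lower, with Sox17 at -0.41 (adjusted p = 0.433), Foxa2 at -0.35 (adjusted p = 0.557) and Foxa1 at 0.50 (adjusted p = 0.312). On the spike-in scale 6 of 8 had an unadjusted p under 0.05 and 0.0% of genes were called higher or lower (0.0%), and 2 of the 8 passed without EpiLC replicate 3.

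Whether the effect of a genotype differed between the stages was tested as the EpiLC change minus the naive change, relative to the median gene. In QKO Sox17 (0.71, adjusted p = 0.0266) and Foxa2 (0.84, adjusted p = 0.018) had a less negative change in EpiLCs, and Gata4 (-0.41, adjusted p = 0.0367) and Pdgfra (-0.46, adjusted p = 0.0413) a less positive one, against 24.8% of genes called higher and 21.0% lower (18.8% and 24.1% when divided by the mean, a shift of -0.16, on which Sox17 and Foxa2 did not pass). In LBRKO Gata4 (-0.57, adjusted p = 0.0106) and Pdgfra (-0.61, adjusted p = 0.0182) had a less positive change in EpiLCs, against 10.2% and 9.55% (6.77% and 13.7%, a shift of -0.11). In TKO none passed (1 at an unadjusted p under 0.05, none with edgeR), with Hnf4a at 0.46 (adjusted p = 0.0697), against 5.77% and 3.81% (1.78% and 8.26%, a shift of -0.18). Tested on the spike-in scale, an alternative added after these results were seen, the difference in QKO was -0.06 for Gata4 (adjusted p = 0.905) and -0.12 for Pdgfra (adjusted p = 0.823), both genes being lower in QKO at each stage, and stayed called for Sox17 (1.04, adjusted p = 0.0349) and Foxa2 (1.16, adjusted p = 0.0268), against 21.9% of genes higher and 7.73% lower. In LBRKO neither Gata4 (-0.72, adjusted p = 0.239) nor Pdgfra (-0.76, adjusted p = 0.238) passed there, against 0.0938% and 0.536%, and both had an unadjusted p under 0.05. In TKO none passed there either (2 at an unadjusted p under 0.05), against 0.823% and 0.00853%. Each of the 6 relative calls was lost when certain single libraries were left out, and all 6 but that of Foxa2 were lost without naive WT replicate 2, when Gata4 had -0.24 (adjusted p = 0.223) in QKO.

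QKO was also set against TKO, the line it was made from, which differ in Lbr. In naive cells Sox17 fell by 1.19 (SE 0.190, adjusted p = 5.73e-07), Foxa1 by 0.72 (SE 0.196, adjusted p = 0.0017) and Foxa2 by 0.71 (SE 0.211, adjusted p = 0.00387), relative to the median gene. Gata4 rose by 0.46 (adjusted p = 0.000838) and Hnf4a by 0.35 (adjusted p = 0.0106), the latter lost without TKO replicate 3 (0.22, adjusted p = 0.143). Over all genes 26.5% were called higher and 27.1% lower. The libraries of Sox17, Foxa1 and Foxa2 lay below those of TKO without overlap, as in 27.6% of all genes. With spike-in values, likewise added afterwards, Sox17 (-1.75, adjusted p = 1.47e-08), Foxa1 (-1.27, adjusted p = 0.000135) and Foxa2 (-1.25, adjusted p = 0.000177) fell too, whereas Gata4 (-0.15, adjusted p = 0.606) and Hnf4a (-0.26, adjusted p = 0.374) changed sign and did not pass, against 6.23% of genes higher and 40.4% lower. In EpiLCs none of the 8 was called relative to the median gene (1 at an unadjusted p under 0.05, none with edgeR), against 0.932% higher and 0.27% lower, while on the spike-in scale Gata4, Foxa1, Foxa2, Hnf4a and Pdgfra fell, by 0.70 to 1.03, against 0.00142% higher and 28.3% lower.

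Other genes of the endoderm programme moved in both directions in naive cells relative to the median gene, while on the spike-in scale most of those called in TKO and QKO were lower. The shares of all genes called, given above for the 8 genes, apply here too, and in QKO were 33.3% higher and 42.1% lower on the relative scale and 10.1% and 65.1% on the spike-in scale. Of 24 genes of primitive and visceral endoderm, LBRKO had 13 higher and 5 lower, TKO 6 and 10, and QKO 10 and 9, relative to the median gene (median 0.02 in QKO, against -0.21 over all genes). In QKO the fetal serum protein gene Afp fell by 2.04, the thrombomodulin gene Thbd by 1.68 and the endocytic adaptor gene Dab2 by 1.31, whereas the laminin gene Lamc1 rose by 1.99, Amn, a partner of the receptor cubilin, by 1.87, and the proteoglycan gene Srgn by 1.63. Dividing by the mean turned the TKO count to 14 higher and 5 lower, and gave 12 higher and 8 lower for QKO. Spike-in values gave 12 higher and 3 lower for LBRKO, none and 11 for TKO, and 2 and 18 for QKO, and the rise of Srgn did not pass there (0.40, adjusted p = 0.135). Of 18 genes of definitive endoderm LBRKO had 9 higher and none lower, TKO 5 and 1, and QKO 9 and 6. Cer1, a secreted antagonist of Nodal, fell by 1.09, the chemokine receptor gene Cxcr4 by 1.0 and the keratin gene Krt19 by 0.66 in QKO. Mixl1, a homeodomain factor gene, rose by 1.52, and Krt8, another keratin gene, by 1.94. Dividing by the mean gave 13 higher and 1 lower for TKO, and 11 higher and 3 lower for QKO. Spike-in values gave 9 higher and none lower for LBRKO, none and 6 for TKO, and 2 and 9 for QKO, where Mixl1 did not pass (0.35, adjusted p = 0.293). The median naive WT percentile was 45.5 in IGG and in LAP2B for the 24 genes, and 54.8 and 52.1 for the 18. Single genes differed more, with Krt8 at 84.9 in IGG and 30.3 in LAP2B, and Afp at 46.4 and 85.3. The part of the background in these changes was not tested.

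Of 10 relatives of the 8 genes, LBRKO had 6 higher and 1 lower, TKO 6 and 2, and QKO 7 and 2, with a median of 1.07 in QKO. Of all genes 33.3% were higher and 42.1% lower in QKO, and 10.1% and 65.1% on the spike-in scale. Gata2 rose by 1.73, Gata5 by 1.48 and Sox18 by 1.64, and Hnf4g fell by 1.96 and Kdr by 0.43, all relative to the median gene. The counts on the spike-in scale were 5 higher and 1 lower for LBRKO, none and 2 for TKO, and none and 4 for QKO, and Gata2 (0.51), Gata5 (0.28) and Sox18 (0.48) did not pass in QKO. In naive WT, Gata2 and Gata5 stood at percentiles 85.8 and 62.1 in IGG and at 36.9 and 23.7 in LAP2B. Sox18 stood at 70.8 in IGG and 70.1 in LAP2B. The part of the background in the changes of these relatives was not tested. Among 12 genes of pluripotency 11 were higher and none lower in QKO (median 1.34), 10 in TKO and 7 in LBRKO, with Klf2 and Pou5f1 at 2.91 each and Sox2 at 2.3. Spike-in values left 5 of the 12 higher and 2 lower in QKO (median 0.11), 3 higher in TKO and 7 in LBRKO. The naive WT background over these genes was high, with a median IGG percentile of 79.7 over the 12 against 44.7 in LAP2B. Klf2, Pou5f1 and Sox2 stood at 99.7, 81.8 and 83.1 in IGG and at 57.0, 29.1 and 5.30 in LAP2B. The part of the background in their rises was not tested.

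Across the 24 LAP2B libraries, which share depth and scaling between genes, the relative levels of Gata4 followed those of Hnf4a (Pearson r = 0.78), Sox7 (0.79) and Pdgfra (0.75) and ran against those of Sox17 (-0.79). Among genes on other chromosomes than the member's own, those most like it were Synj2 for Gata4 (r = 0.94) and for Sox7 (0.84), 2610021A01Rik for Sox17 (0.90), Tal1 for Foxa2 (0.88), Cfap46 for Hnf4a (0.88), Mvb12b for Pdgfra (0.85), Fat1 for Foxa1 (0.83) and Ndc1 for Gata6 (0.82). Over the 8 genes, the naive WT LMNB1 percentile and the relative change in naive QKO had a Spearman correlation of -0.79, and the IGG percentile had -0.40. The genes with most LMNB1 in WT thus had the lower relative change, a description over 8 points that share their WT cells. The same correlation was not taken over all genes, so it is not read as particular to these 8.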

How the data were processed

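LAP2B, LMNB1 and IGG CUT&RUN libraries (36, in 12 groups of 3) were grouped by their labels. Per the labels and the study's methods, the authors aligned reads with Bowtie2 2.3.5.1 to mm39 and yeast reads to sacCer3, used SAMtools 1.10, and computed with deepTools the RPKM of each 1 kb bin, multiplied by a spike-in factor. The deposited signal value of a gene was read as the sum over the 1 kb bins it touches, not divided by length: 782 of 782 values of genes over bins of known, unequal value equalled the sum, whereas 81 of 81 with equal bins counted 1 bin only. Adjacent bins were equal in 4.01% to 15.2% of cases by library, so values are undercounted by an amount that depends on depth. Values were whole multiples of a step (within 0.05), and whole reads were recovered. Replicates of a group differed beyond sampling noise (chi-square per degree of freedom 3.41 to 12.9 over 36 pairs).

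Coordinates came from GENCODE M39 for 78131 genes. The lowest 0.1 of genes by table mean was left out. Log2 values took a pseudocount of 0.1 of the table median, or 0.1 on the relative scale, so changes of low genes are understated. Tests were two-sided with limma 3.58.1 in R 4.3.3 (trend), with Benjamini-Hochberg adjustment over 70381 genes, and all 24 LAP2B libraries were in 1 model. edgeR 4.0.16 and DESeq2 1.42.0 on recovered reads were alternatives. Tables used Python 3.11.15, pandas 2.3.3 and numpy 2.4.6. The limma and edgeR tests of naive QKO against WT on the relative scale were checked on simulated data in which few genes changed. A change of many genes at once, and the spike-in scale, were not simulated. Same-numbered libraries did not deviate together (r over 0.1 in 3 of 90 pairs, -0.25 to 0.18), so no block was used. The 8 genes and the other gene lists were chosen with earlier results of these data known. Named besides were the nearest coding gene on each side, the gene most alike on another chromosome, and from each list up to 3 genes with the largest called change each way in naive QKO. A gene that this rule names is not reported here. A pair of H3K9me3 samples was not analysed here.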

Additional observations from a re-analysis of the deposited data

Results flagged for a closer look

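For 6 results the effect of a genotype differed between the stages by the interaction contrast of limma on the relative scale, given as the EpiLC change minus the naive change in log2 units. In LBRKO the difference was -0.57 for Gata4 (adjusted p = 0.0106) and -0.61 for Pdgfra (adjusted p = 0.0182). In QKO it was -0.41 for Gata4 (adjusted p = 0.0367), -0.46 for Pdgfra (adjusted p = 0.0413), 0.71 for Sox17 (adjusted p = 0.0266) and 0.84 for Foxa2 (adjusted p = 0.018). Of the naive changes behind them, all 6 had passed on their own, and none of the EpiLC changes had.

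On the spike-in scale, tried after these results were seen, the differences of Gata4 and Pdgfra in QKO were -0.06 (adjusted p = 0.905) and -0.12 (adjusted p = 0.823), those in LBRKO did not pass (adjusted p = 0.239 and 0.238), and those of Sox17 (1.04) and Foxa2 (1.16) in QKO passed.

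Single libraries carried these differences. That of Gata4 in LBRKO was lost without naive WT replicate 2 (-0.40, adjusted p = 0.0804), and that of Pdgfra in LBRKO without any of 4 libraries, which are replicate 2 of naive WT, naive LBRKO, EpiLC WT and EpiLC LBRKO (adjusted p = 0.0647 to 0.0707). In QKO, Foxa2 was lost without naive QKO replicate 1, EpiLC WT replicate 2 or EpiLC QKO replicate 2 (0.62 to 0.74, adjusted p = 0.0549 to 0.0926), and Sox17 without naive WT replicate 2, naive QKO replicate 3, EpiLC WT replicate 2 or EpiLC QKO replicate 1 (0.53 to 0.64, adjusted p = 0.0677 to 0.117). Gata4 in QKO was lost in 7 of 12 such fits (-0.24 without naive WT replicate 2, adjusted p = 0.223) and Pdgfra in QKO in 6 of 12 (-0.34 without EpiLC QKO replicate 1, adjusted p = 0.164). No group held more than 3 libraries, and single libraries were not tested as outliers within their groups.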

How the results depend on the processing

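The number of the 8 genes called stayed within 1.5 times its value under every alternative run in naive QKO on both scales and, on the relative scale, in naive LBRKO, between the stages of WT LAP2B and for IGG. For the other counts it changed under at least 1 alternative, given next, and the cause was not tested. Without the intensity trend it was 3 in naive LBRKO, 0 between the stages of WT LAP2B and 0 of WT LMNB1 on the spike-in scale, and on the relative scale 0 in EpiLC TKO, 0 for LMNB1, and 0 and 1 for the stage differences of LBRKO and QKO. When reads rather than RPKM took the spike-in factor it was 7 in naive TKO, 5 in EpiLC LBRKO, 1 in EpiLC QKO, 4 between stages in LAP2B and 1 in LMNB1. Without the filter on low values it was 0 between stages on the spike-in scale in LAP2B and in LMNB1, and on the relative scale 1 in LMNB1 and 1 for the QKO stage difference. DESeq2 gave 3 in naive TKO and 2 for the QKO stage difference. edgeR gave 1 in EpiLC TKO and 2 for the QKO stage difference on the relative scale, and 1 for LMNB1 on the spike-in scale. Dividing by the mean gave 5 in naive TKO, 3 in EpiLC QKO and 2 for the QKO stage difference, and did so too with the pseudocount scaled along, which was added after seeing the data. Fitting a stage alone gave 1 in EpiLC LBRKO and 2 in EpiLC QKO.

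The spike-in scale in place of the relative one, added after seeing the data, gave 0 for the LBRKO stage difference, 2 for that of QKO, and 3 in naive cells and 5 in EpiLCs between QKO and TKO, where Gata4 (-0.15) and Hnf4a (-0.26) reversed in naive cells.

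Replicate numbers did not pair the samples. With a replicate block the spike-in count between stages was 1 in place of 2 in LAP2B and 0 in place of 2 in LMNB1, and no other count left 1.5 times its value.

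Leaving out 1 library gave on the spike-in scale 2 to 6 genes in naive LBRKO, 0 to 6 in naive TKO, 0 to 1 in EpiLC TKO, 2 to 8 in EpiLC QKO, 0 to 2 between stages in LAP2B, 0 to 4 in LMNB1 and 0 to 2 in IGG. On the relative scale it gave 1 to 2 in naive TKO, 0 to 1 in EpiLC TKO, 0 to 1 in EpiLC QKO, 0 to 5 in LMNB1, and for the stage differences 0 to 2 in LBRKO, 0 to 1 in TKO and 0 to 4 in QKO. A pair of uncalled changes in naive QKO changed sign, Sox7 (-0.13 to 0.51) and Foxa1 (-0.13 to 0.24).

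Per kb of gene length instead of per bin, naive WT LAP2B percentiles were 9.18 for Gata4, 12.6 for Gata6, 81.1 for Sox17, 82.1 for Foxa2, 13.0 for Hnf4a and 9.14 for Pdgfra, and those of LMNB1 were 7.40, 24.6, 81.6, 78.8, 10.0 and 12.3, with 57.9 for Foxa1. Of the alternatives for the 72 changes of single genes, 966 kept direction and side of the threshold, 175 no longer passed, 18 newly passed, 10 moved relative to their chromosome and 4 reversed. Depth limits Sox7 most, with 24 reads in its shallowest library.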
